A study of Mus musculus with 11 samples.

Results

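The genes that make, recover and break down acetylcholine, and 5 subunits of the neuronal nicotinic acetylcholine receptor, were followed through the differentiation of mouse embryonic stem cells. The set held 9 genes chosen by symbol: Chat, Slc18a3, Slc5a7, Ache, Chrna3, Chrna4, Chrna5, Chrnb2 and Chrnb4. Of these, 8 were found among the 38197 genes of the deposited count table, and Slc18a3, the vesicular acetylcholine transporter, was not analysed here. The choice was made with earlier results of these data known and used the difference of Chrna3 between day 1 and day 0. Levels on day 1 and day 0 are therefore described without a test for every gene of the set, and Chrna3 is tested in no comparison that involves day 0 or day 1.

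The cells were E14, a wild type mouse embryonic stem cell line of strain 129, grown as a monolayer. They were exposed to RA, retinoic acid, which patterns the hindbrain, and to SAG, an agonist of the hedgehog pathway, from day 0 to day 3. Polyadenylated RNA was sequenced from unsorted cells at days 0, 1, 2 and 3, with 2 libraries a day, and from Prominin-1 sorted neural progenitors, with 3 libraries. The sorted cells are called day 3.5 in most labels and 3 days in another, and their libraries carry a different sequencing project number, so sorting, time and project cannot be told apart. The descriptions of the unsorted libraries, those of days 1 to 3 included, contain the term Nondiff, while their titles give the day. The meaning of that term was not resolved here. No untreated cells of the later days were analysed here, so treatment and time cannot be told apart either. Whether the libraries of 1 day were made from separate cultures is not stated in the labels, and p-values therefore measure only the spread between these libraries. Library totals lay between 13173674 and 30384599 counts, with the 3 sorted libraries the smallest.

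Acetylcholine is synthesised by choline acetyltransferase (Chat), loaded into vesicles by Slc18a3 and hydrolysed by acetylcholinesterase (Ache), and the choline is taken up again by Slc5a7. Nicotinic receptors are pentameric cation channels opened by acetylcholine. Chrna3 with Chrnb4 forms the receptor typical of autonomic ganglia, Chrna4 with Chrnb2 the most common heteromeric receptor of the brain, and Chrna5 is an accessory subunit that joins either. In the hindbrain the cholinergic cells are chiefly cranial motor neurons, which express the transcription factor Isl1.

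Chrna5, Chrna3 and Chrnb4 lie next to each other on chromosome 9 in a cluster of 67900 bases (GRCm38, chr9:54980880-55048779, GENCODE M21). Chrna5 (chr9:54980880-55007779) is on the plus strand, and Chrna3 (chr9:55010111-55026562) and Chrnb4 (chr9:55028154-55048779) are on the minus strand. The gap between Chrna5 and Chrna3 is 2331 bases and that between Chrna3 and Chrnb4 is 1591 bases. The other genes are dispersed, with Chrna4 at chr2:181018380-181043546, Chrnb2 at chr3:89746195-89764632, Ache at chr5:137287519-137294466, Chat at chr14:32408203-32465989 and Slc5a7 at chr17:54273590-54299034. Slc18a3 (chr14:32462438-32464850) lies within the bounds of Chat.

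The promoter windows of the cluster are shown because it holds Chrna3 and the 2 receptor genes nearest to it. Each window runs from 250 bases before to 50 bases after a RefSeq start (GRCm38.p6), 5′ to 3′ on the strand of the gene. Capitals mark every match, on either strand, to AGGTCA (the core of retinoid receptor elements), CANNTG (the E-box), GGGCGG (the GC box) or TAATTA (a homeodomain core). Chrna5 has windows at chr9:54980630-54980929 and chr9:54981238-54981537 on the plus strand, Chrna3 one at chr9:55026513-55026812 and Chrnb4 one at chr9:55048495-55048794, both on the minus strand.
Chrna5, first start: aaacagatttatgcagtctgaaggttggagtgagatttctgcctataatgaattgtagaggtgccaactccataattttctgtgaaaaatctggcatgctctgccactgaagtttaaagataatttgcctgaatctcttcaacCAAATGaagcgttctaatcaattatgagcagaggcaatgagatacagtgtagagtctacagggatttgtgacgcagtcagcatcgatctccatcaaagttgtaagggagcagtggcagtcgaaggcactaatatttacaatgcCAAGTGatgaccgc
Chrna5, second start: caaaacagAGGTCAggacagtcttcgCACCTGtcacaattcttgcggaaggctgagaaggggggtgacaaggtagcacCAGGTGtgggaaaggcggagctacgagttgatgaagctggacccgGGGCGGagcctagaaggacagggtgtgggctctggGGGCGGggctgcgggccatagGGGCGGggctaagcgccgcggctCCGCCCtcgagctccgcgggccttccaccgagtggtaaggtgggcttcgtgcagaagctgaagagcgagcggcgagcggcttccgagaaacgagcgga
Chrna3: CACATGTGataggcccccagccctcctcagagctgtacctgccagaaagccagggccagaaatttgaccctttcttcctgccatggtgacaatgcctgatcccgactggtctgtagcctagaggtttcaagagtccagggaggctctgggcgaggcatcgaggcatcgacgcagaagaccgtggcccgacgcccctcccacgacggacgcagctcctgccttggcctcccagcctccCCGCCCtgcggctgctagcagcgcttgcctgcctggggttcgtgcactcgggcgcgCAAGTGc
Chrnb4: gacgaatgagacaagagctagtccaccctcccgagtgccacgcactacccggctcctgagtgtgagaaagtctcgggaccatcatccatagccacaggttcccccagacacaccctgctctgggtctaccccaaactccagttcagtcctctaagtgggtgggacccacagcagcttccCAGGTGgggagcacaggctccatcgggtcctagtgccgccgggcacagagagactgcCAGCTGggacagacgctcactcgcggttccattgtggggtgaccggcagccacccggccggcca

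The second Chrna5 window held AGGTCA at 242 bases before its start and 4 GC boxes, and the first held neither. In the Chrna3 window 2 E-boxes overlapped at its 5′ end, another lay after the start, and a GC box lay 13 bases before it. The Chrnb4 window held 2 E-boxes, at 71 and 14 bases before its start. Over the 10 windows of all 9 genes, AGGTCA was present in 2, CANNTG in 9, GGGCGG in 6 and TAATTA in 0. Among 32851 mouse promoters of the same length, 16.3% held AGGTCA, 72.3% CANNTG, 35.7% GGGCGG and 5.29% TAATTA. These matches describe letters only.

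Day 0 RNA contained very little of most of these genes. Levels are counts scaled to library size (CPM) with TMM factors over all 11 libraries, and comparisons between genes use the FPKM values deposited by the authors, which are per length. Chrna3 had 3 and 3 counts on day 0, which was 0.102 and 0.127 CPM. Chat had 4 and 1 counts, and Ache had 2 and 3 counts. Chrna5 was the highest receptor subunit per length on day 0, with 0.748 and 0.955 FPKM, followed by Chrnb4 with 0.378 and 0.316 FPKM and Chrnb2 with 0.307 and 0.349 FPKM. The libraries of Chrnb4 and Chrnb2 overlapped, so these neighbours in the order did not differ beyond their spread. The stem cell label was checked with Nanog, Esrrb, Zfp42, Pou5f1 and Klf4, whose summed level lay between 990 and 1040 CPM on day 0 and between 11.2 and 15.4 CPM on day 3.

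Chrna3 appeared within the first day. It had 326 and 265 counts on day 1, against 3 and 3 counts on day 0, or 11.7 and 8.32 CPM on day 1 and 0.102 and 0.127 CPM on day 0. The ratio of pooled scaled counts, day 1 over day 0, was 87.5 (exact 95% interval 40 to 239, counting error only). Every later library was also far above day 0, with 6.03 and 8.75 CPM on day 2, 49.6 and 36.8 CPM on day 3, and 62.1, 51.3 and 44.3 CPM in sorted cells. The libraries of day 2 and day 1 overlapped, and a second step followed on day 3. In bulk RNA, a change in the number of cells that express a gene and a change in RNA per cell cannot be told apart.

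**Figure D1:**
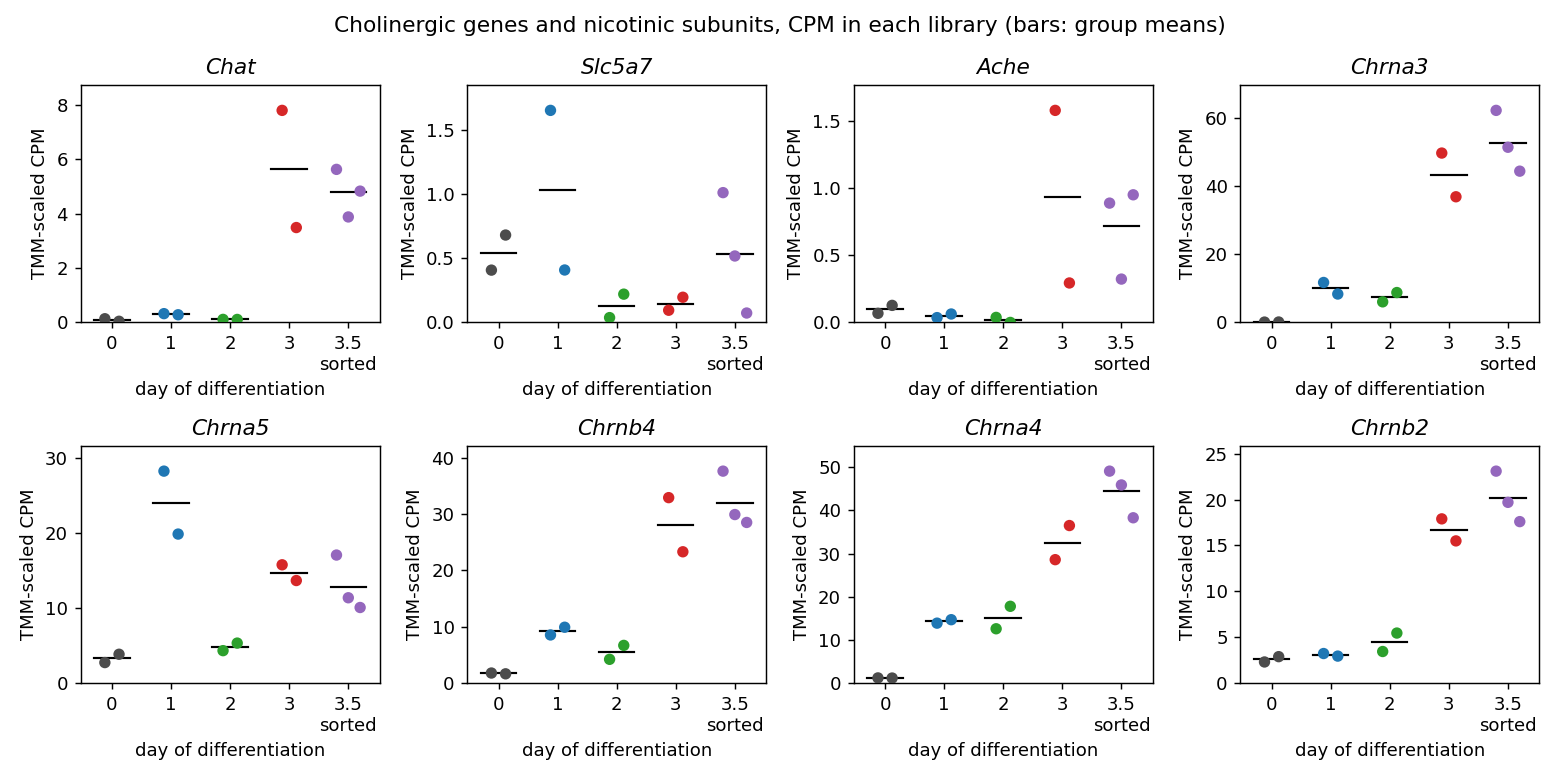
TMM-scaled CPM (vertical axes, each starting at 0) of the 8 measured genes by day of differentiation (horizontal axes), with points for libraries and bars for group means. Chrna5 is highest on day 1, at 28.3 and 19.9 CPM, while Chrna3, Chrna4, Chrnb4 and Chrnb2 are highest in sorted day 3.5 cells and Chat on day 3.

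Other receptor subunits were also higher on day 1, by smaller ratios. Chrna4 had 13.9 and 14.7 CPM on day 1, against 1.22 and 1.19 CPM on day 0, a ratio of 11.9 (interval 9.23 to 15.6). Chrna5 had 28.3 and 19.9 CPM on day 1, against 2.75 and 3.86 CPM on day 0, a ratio of 7.34 (6.26 to 8.65). Chrnb4 had 8.55 and 9.92 CPM on day 1, against 1.8 and 1.66 CPM on day 0, a ratio of 5.35 (4.28 to 6.74). For each of these genes both day 1 libraries lay several-fold above both day 0 libraries. Chrnb2 had 3.23 and 2.95 CPM on day 1, against 2.31 and 2.89 CPM on day 0, a ratio of 1.2 (0.958 to 1.51). Its libraries did not overlap between the days, with 2.95 CPM the lowest on day 1 and 2.89 CPM the highest on day 0. The ratio of the partner beta subunit of the brain type receptor was thus the smallest of the 5 subunits, and no test was made of it. Chrnb2 overlaps exons of Adar on the opposite strand, and the part of Adar reads in its low levels was not tested.

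The enzyme and transporter genes stayed low over the first day. Chat had 9 and 9 counts on day 1, against 4 and 1 counts on day 0. Its libraries did not overlap between these days, and its pooled ratio was 3.2 (1.14 to 11). Slc5a7 had 1.65 and 0.408 CPM on day 1, against 0.407 and 0.68 CPM on day 0, a pooled ratio of 1.87 (1.17 to 3.05), and a single day 1 library stood high while the days overlapped. Ache had 1 and 2 counts on day 1, against 2 and 3 counts on day 0.

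The day 1 levels were set beside 13 neuron markers. Their summed level lay between 224 and 228 CPM on day 1, against 505 to 507 CPM on day 0, and between 1165 and 1345 CPM on day 3. None was at or under 3 counts in both libraries of a day. In edgeR's quasi-likelihood test with Benjamini-Hochberg adjustment over all genes, 5 of the 13 were higher and 4 lower on day 1 than on day 0, where 20.9% of all genes were called, 12% higher and 8.91% lower. Dcx, a microtubule protein of young neurons, had 2.23 and 1.95 CPM on day 1, against 0.78 and 0.849 CPM on day 0 (log2 fold change 1.35 ± 0.28 SE, adjusted p = 0.0104). It had 62 and 62 counts on day 1 and 3964 and 4950 counts on day 3. Elavl4, a neuronal RNA binding protein, had 7.04 and 5.84 CPM on day 1, against 3.49 and 4.5 CPM on day 0 (0.68 ± 0.21, adjusted p = 0.0475). Stmn2, a neuronal tubulin regulator, was the marker with the highest day 0 level of those given here, with 67.4 and 60.3 CPM on day 1, against 293 and 325 CPM on day 0 (-2.28 ± 0.17, adjusted p = 0.000154). Stmn2 alone thus made up most of the day 0 sum of the markers and most of its fall to day 1. Dcx and Elavl4 were thus far below their day 3 levels on day 1 but not at 0, and the part of the markers in the day 1 level of Chrna3 was not tested.

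Day 2 against day 1 gave 1 call in the set, the accessory subunit Chrna5, which was lower. Chrna5 had 4.34 and 5.35 CPM on day 2, against 28.3 and 19.9 CPM on day 1. Its log2 fold change was -2.32 ± 0.29 (SE, edgeR adjusted p = 0.00102), and its day 2 libraries lay just above the day 0 values of 2.75 and 3.86 CPM. It was the single call among the 6 genes tested in this comparison (0 higher, 1 lower), where 19.6% of all genes were called, 9.65% higher and 9.99% lower. At an unadjusted p under 0.05, 3 of the 6 were lower: Chrna5, Chrnb4 and Slc5a7, which entered this fit only through days 0 and 1, where it was high. Here and below, counts at an unadjusted p stand without the share of all genes at that threshold, so no result is drawn from them. The median log2 fold change of the 4 subunits tested was -0.34, against -0.003 for all genes tested.

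The other subunits did not pass on day 2. Chrnb4, at the other end of the cluster, had 4.23 and 6.7 CPM on day 2, against 8.55 and 9.92 CPM on day 1 (-0.76 ± 0.29, adjusted p = 0.0987). Chrna4 had 12.6 and 17.8 CPM on day 2, and its day 1 libraries of 13.9 and 14.7 CPM lay between them (0.07 ± 0.24, adjusted p = 0.851). Chrnb2 had 3.45 and 5.46 CPM on day 2, against 3.23 and 2.95 CPM on day 1 (0.52 ± 0.31, adjusted p = 0.252). Chat returned to 3 and 3 counts on day 2, against 9 and 9 counts on day 1 (adjusted p = 0.205). Slc5a7 had 1 and 6 counts on day 2, against 46 and 13 counts on day 1. It entered this fit only through its day 0 and day 1 counts, where it was high. No test of Slc5a7 is therefore counted as a result here, and its levels are described. With DESeq2, or without a filter on low counts, it was a second call in the set, which is not counted either.

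Per length, the subunits changed places between days 0 and 3. The summed FPKM of the 5 subunits was 1.65 and 1.82 on day 0, 15.6 and 13.8 on day 1, 6.37 and 9.18 on day 2, 33.8 and 27.3 on day 3, and 39.7, 33.5 and 30.9 in sorted cells. The sum on day 2 was thus lower than on day 1 in both libraries. Chrna5 made up a mean of 48.9% of that sum on day 0, 47.8% on day 1, 18.4% on day 2, 14.6% on day 3 and 10.6% in sorted cells. Chrna3 made up 1.48% on day 0, 17.2% on day 1, 24% on day 2, 37% on day 3 and 38.3% in sorted cells. Chrnb2 had its lowest share on day 1, 3%, against 18.9% on day 0, and stood at 8.12% on day 2, 8.09% on day 3 and 8.3% in sorted cells. On day 1 Chrna5 led with 8.07 and 6.05 FPKM, and Chrna3 (2.9 and 2.19), Chrna4 (2.31 and 2.79) and Chrnb4 (1.88 and 2.32) overlapped each other. The shares of one sum are not independent of each other, and they are given as a description.

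**Figure D2:**
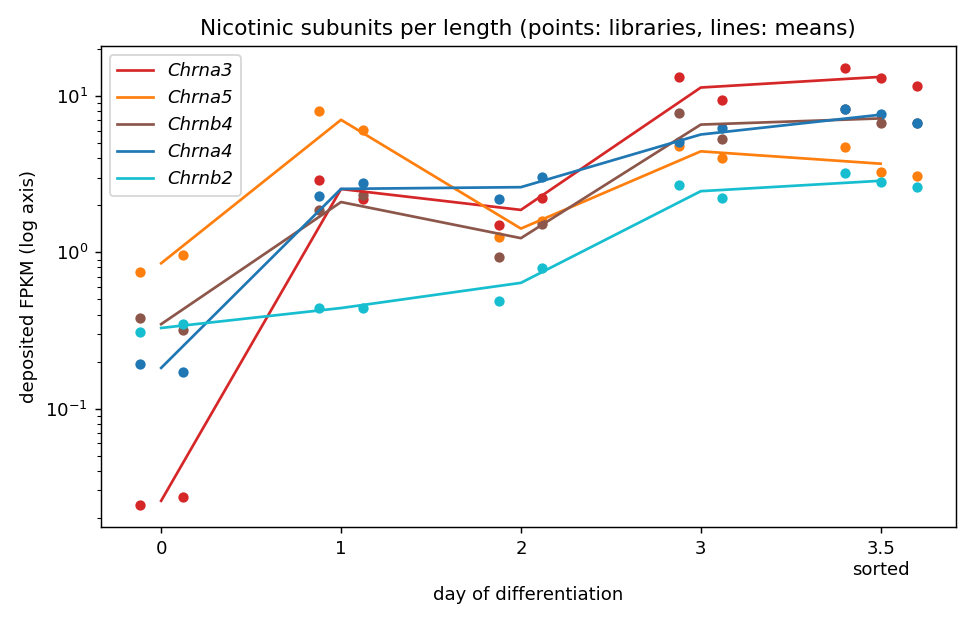
Deposited FPKM (vertical axis, log scale) of the 5 receptor subunits by day of differentiation (horizontal axis, days equally spaced), with points for libraries and lines through group means. Chrna5 is the highest subunit at days 0 and 1, and Chrna3 is the lowest on day 0 and the highest on day 3 and in sorted cells.

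Ratios within a library, which do not depend on the library's scaling, showed the same order. The FPKM of Chrna5 over that of Chrna3 was 31.1 and 34.9 on day 0, 2.78 and 2.76 on day 1, 0.835 and 0.704 on day 2, 0.364 and 0.429 on day 3, and 0.313, 0.251 and 0.263 in sorted cells. Each day lay wholly below the day before, and the denominator on day 0 rests on 3 counts a library. Chrnb4 over Chrna3 was 15.7 and 11.6 on day 0, with the same denominator of 3 counts, 0.649 and 1.06 on day 1, 0.623 and 0.681 on day 2, 0.589 and 0.565 on day 3, and 0.541, 0.515 and 0.57 in sorted cells. From day 1 onwards this ratio lay between 0.515 and 1.06, while that of Chrna5 over Chrna3 lay between 0.251 and 2.78. Chrnb2 over Chrna4 was 1.59 and 2.04 on day 0, 0.191 and 0.157 on day 1, 0.222 and 0.259 on day 2, 0.528 and 0.357 on day 3, and 0.384, 0.363 and 0.385 in sorted cells. The pair of the brain type receptor was therefore most uneven on day 1. Chrnb2 shares exon bases with Adar, and the counting strand is unknown. Chrnb2 had 68 and 68 counts on day 0, where Adar had 2383 and 1901 counts. The part of Adar reads in these ratios and in the shares of Chrnb2 was not tested.

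On day 3 all 5 receptor subunits rose above day 2 in edgeR's test, where 4.07% of all genes were called, 2.81% higher and 1.26% lower. Their median log2 fold change was 1.91, against -0.0068 for all genes tested. Chat entered this fit only through its day 3 counts, where it is high, so its call is not counted as a result and its levels are described. Slc5a7 entered only through its day 0 and day 1 counts, and Ache had too few counts to enter. Without the first day 3 library 0 of the 5 subunits were called, without the first day 2 library 0, and without the second day 2 library 1, Chrna3. All genes together had 13, 84 and 24 calls in those fits, in that order, against 684 with all libraries, and the 5 subunits kept their direction. With deposited FPKM on a log2 scale 1 to 3 of the subunits were called.

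Chrna3 had 49.6 and 36.8 CPM on day 3, against 6.03 and 8.75 CPM on day 2, a log2 fold change of 2.55 ± 0.30 (edgeR adjusted p = 0.00538). The adjusted p was 0.0503 without the first day 2 library and 0.0666 without the first day 3 library. Chrnb4 had 32.9 and 23.3 CPM on day 3, against 4.23 and 6.7 CPM on day 2 (2.37 ± 0.30, adjusted p = 0.00691). Chrna5 had 15.8 and 13.7 CPM on day 3, against 4.34 and 5.35 CPM on day 2 (1.62 ± 0.29, adjusted p = 0.0201). All 3 genes of the cluster thus rose together at this step. Chrna5 had been higher still on day 1, with 28.3 and 19.9 CPM, whereas Chrna3 and Chrnb4 had not. Whether the 3 rises differed from each other was not tested.

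The brain type subunits rose as well. Chrnb2 had 17.9 and 15.5 CPM on day 3, against 3.45 and 5.46 CPM on day 2 (1.91 ± 0.30, adjusted p = 0.0148). Chrnb2 shares 1365 of its 8380 exon bases with Adar on the opposite strand, and the counting strand is unknown here. Adar had 89.4 and 97.4 CPM on day 3, against 93.9 and 94.8 CPM on day 2, without a step like that of Chrnb2. Chrna4 had 28.6 and 36.5 CPM on day 3, against 12.6 and 17.8 CPM on day 2 (1.11 ± 0.24, adjusted p = 0.0409). Its call was the closest to the threshold of the 5, and it was lost without any one of the day 2 and day 3 libraries (adjusted p = 0.138 to 0.286), with the deposited voom values (0.0561) and with FPKM (0.0815 to 0.125).

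Chat, whose product makes acetylcholine, had 247 and 107 counts on day 3, against 3 and 3 counts on day 2. That was 7.8 and 3.49 CPM on day 3, against 0.112 and 0.11 CPM on day 2, and the pooled ratio was 51.2 (exact 95% interval 23.3 to 140). No test is given for this step of Chat. The libraries of day 3 differed widely from each other, yet both stood far above every earlier library. Ache, whose product ends the signal, had 50 and 9 counts on day 3, against 1 and 0 counts on day 2, and its pooled ratio of 51.2 has an interval of 8.83 to 2054. Ache shares 98 exon bases with an annotated antisense gene. Slc5a7 had 3 and 6 counts on day 3, against 1 and 6 counts on day 2 (adjusted p = 0.956), so the choline transporter was near the detection floor of 3 counts on the day that Chat was highest.

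**Figure D3:**
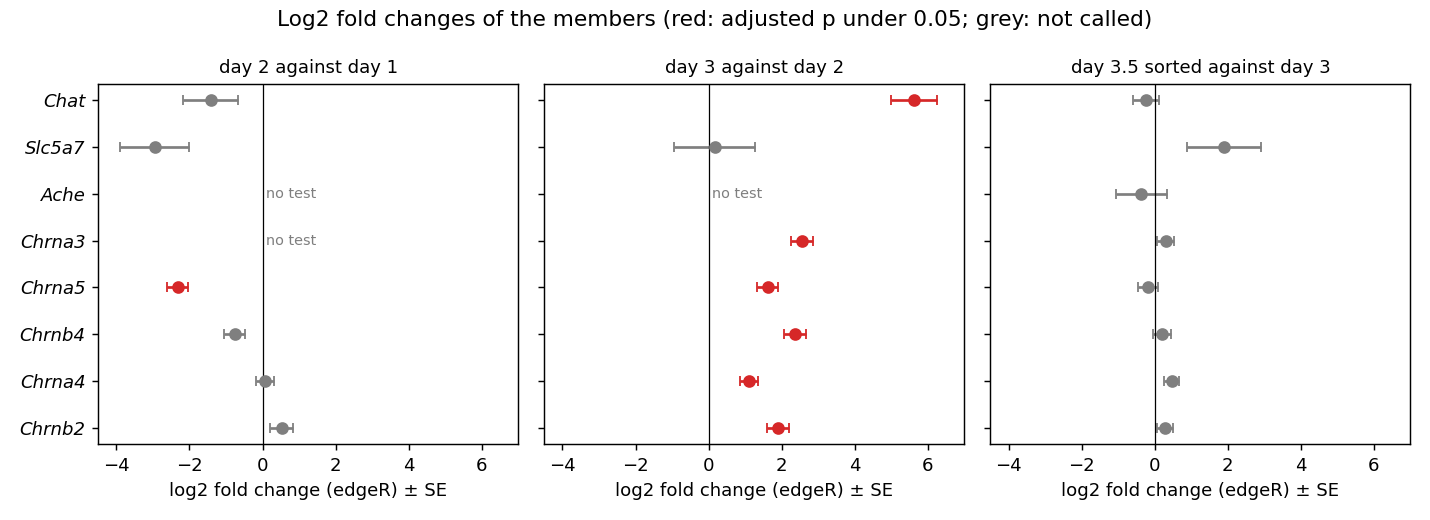
Log2 fold changes from edgeR (horizontal axes) with bars of 1 SE for each measured gene (rows) in day 2 against day 1, day 3 against day 2 and sorted day 3.5 against day 3. Red points passed an adjusted p of 0.05: Chrna5 in the first panel, the 5 subunits and Chat in the second, and none in the third. Chat entered the fit of the second panel only through its day 3 counts. Slc5a7 entered the fit of the first and second panels only through its day 0 and day 1 counts.

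Per length on day 3, Chrna3 was highest with 13.3 and 9.43 FPKM. It was followed by Chrnb4 with 7.83 and 5.33 FPKM and Chrna4 with 5.12 and 6.25 FPKM, which overlapped. Chrna5 had 4.83 and 4.04 FPKM, and Chrnb2 had 2.7 and 2.23 FPKM. Chat, with 2.31 and 0.995 FPKM, overlapped Chrnb2. Ache had 0.636 and 0.08 FPKM and Slc5a7 had 0.0149 and 0.0295 FPKM, the lowest of the measured genes.

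Over the full unsorted course, all 4 of the receptor subunits tested were higher on day 3 than on day 0. This contrast called 53.9% of all genes, 27.6% higher and 26.3% lower, and the median log2 fold change of the 4 subunits was 3.35, against 0.016 for all genes tested. Chrna4 had the smallest p of the 4, with 28.6 and 36.5 CPM on day 3, against 1.22 and 1.19 CPM on day 0 (4.74 ± 0.29, edgeR adjusted p = 5.61e-06). Chrnb4 (4.01 ± 0.33, adjusted p = 2.12e-05), Chrnb2 (2.68 ± 0.32, 0.000146) and Chrna5 (2.16 ± 0.30, 0.000334) followed among the subunits. Chat, given without a test because it entered the fit only through its day 3 counts, had 247 and 107 counts on day 3, against 4 and 1 counts on day 0, a pooled ratio of 60.3 (exact 95% interval 25.6 to 187). Slc5a7 had 0.0948 and 0.196 CPM on day 3, against 0.407 and 0.68 CPM on day 0. It is given without a test, because it entered the fit only through its day 0 and day 1 counts. Chrna3, given without a test, had a pooled ratio of 382 (exact 95% interval 175 to 1043), day 3 over day 0.

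The neuron markers moved over the same step from day 2 to day 3, with 12 of 13 higher and 0 lower, where 2.81% of all genes were called higher and 1.26% lower. Their summed level was 1165 to 1345 CPM on day 3, against 184 to 193 CPM on day 2. Dcx had 3964 and 4950 counts on day 3, against 226 and 310 counts on day 2 (3.86 ± 0.23, edgeR adjusted p = 0.000221). Elavl4 had 196 and 181 CPM on day 3, against 24.5 and 20.1 CPM on day 2 (3.09 ± 0.21, adjusted p = 0.00039). Among markers of other transmitters, the 2 glutamatergic markers summed to 0.653 to 0.79 CPM on day 3 and the 3 serotonergic markers to 0.653 to 0.853 CPM. The 4 GABAergic and glycinergic markers summed to 0.379 to 1.04 CPM. The 2 noradrenergic markers, Dbh and Th, summed to 2.97 to 3.79 CPM on day 3, against 0.599 to 0.659 CPM on day 2. Of 6 skeletal muscle markers, Myod1, Myog, Myf5 and Ckm were at or under 3 counts in every library of day 3. Des and Actc1 were present, with 118 and 73 counts of Des and 500 and 666 counts of Actc1 on day 3. The part of the neuron markers in the day 3 levels was not tested.

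**Figure D4:**
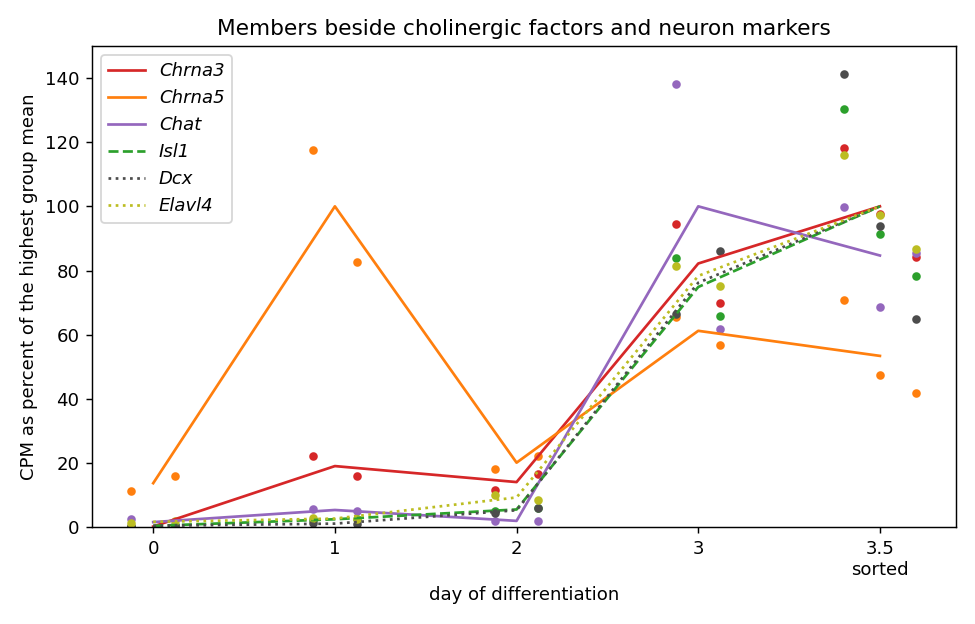
CPM as percent of the highest group mean of each gene (vertical axis) by day of differentiation (horizontal axis, days equally spaced), with points for libraries and lines through group means. Chrna5 peaks on day 1, Chrna3 has an early step on day 1, and Chat, Isl1, Dcx and Elavl4 stand mostly on day 3 and in sorted cells.

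In Prominin-1 sorted day 3.5 cells, none of the 8 genes differed from unsorted day 3 cells in edgeR's test (0 higher, 0 lower). DESeq2 also called 0, and 1 of the 8 had an unadjusted p under 0.05. The contrast called 3.37% of all genes, 0.435% higher and 2.93% lower, and the set's median log2 fold change was 0.24, against -0.0052 for all genes tested. The gene with the small unadjusted p was Chrna4, which had 49.1, 45.9 and 38.3 CPM in sorted cells, against 28.6 and 36.5 CPM on day 3 (0.46 ± 0.20, adjusted p = 0.278). Its libraries did not overlap between the groups. Chrna3 averaged 52.6 ± 8.92 CPM in sorted cells (SD, n = 3), against 43.2 ± 9.08 CPM on day 3 (SD, n = 2), and its log2 fold change was 0.30 ± 0.23 (adjusted p = 0.594).

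The remaining subunits had small log2 differences between sorted and day 3 cells. Chrnb2 had 23.1, 19.7 and 17.6 CPM in sorted cells, against 17.9 and 15.5 CPM on day 3 (0.28 ± 0.23, adjusted p = 0.621). Chrnb4 had 37.6, 29.9 and 28.5 CPM, against 32.9 and 23.3 CPM on day 3 (0.20 ± 0.24, adjusted p = 0.758). Chrna5 had 17.1, 11.4 and 10.1 CPM, against 15.8 and 13.7 CPM on day 3 (-0.18 ± 0.27, adjusted p = 0.817). The groups overlapped for all 3. A p above the threshold with these SEs does not show that the groups are equal.

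Chat remained present in the sorted cells. It had 5.63, 3.88 and 4.83 CPM there, against 7.8 and 3.49 CPM on day 3 (-0.23 ± 0.36, adjusted p = 0.836). Ache had 15, 5 and 13 counts in sorted cells, against 50 and 9 counts on day 3 (adjusted p = 0.869). Slc5a7 had 17, 8 and 1 counts in sorted cells, against 3 and 6 counts on day 3 (adjusted p = 0.406). The groups overlapped for all 3 of these genes.

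The label of the sorted cells was checked with markers. Prom1, the sorted antigen, had 331, 280 and 283 CPM in sorted cells, against 263 and 215 CPM on day 3 (0.33 ± 0.15, edgeR adjusted p = 0.315). Of 5 progenitor markers 1 was higher, Fabp7, with 230, 143 and 110 CPM in sorted cells, against 17 and 31 CPM on day 3 (2.76 ± 0.36, edgeR adjusted p = 0.00147). None of 13 neuron markers was lower: they summed to 1072 to 1713 CPM in sorted cells, against 1165 to 1345 CPM on day 3, with 0 called and 2, Elavl3 and Elavl4, higher at an unadjusted p under 0.05. Of 5 extraembryonic endoderm markers 4 were lower, and they summed to 33.5 to 39.2 CPM in sorted cells, against 136 to 173 CPM on day 3. Beside these marker counts, 0.435% of all genes were called higher in this contrast and 2.93% lower. The receptor subunits and Chat in the sorted libraries thus stood beside neuron marker RNA whose summed level overlapped that of unsorted day 3 cells, and its part in their levels was not tested.

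The genes flanking the cluster did not share its pattern. Psma4, a proteasome subunit gene that lies 22850 bases before Chrna5, averaged 175 CPM on day 0, 161 on day 1, 104 on day 2, 78.3 on day 3 and 99.8 in sorted cells. On the other side, Ube2q2 averaged 59.8 CPM on day 0 and 45.5 CPM on day 3, and Fbxo22 157 CPM on day 0 and 58.7 CPM on day 3. Nrg4, a growth factor gene, averaged 6.57 CPM on day 0 and 0.526 CPM on day 3. AY074887 was at 0 in every unsorted library, and Hykk was not analysed here. Each flanking gene with reads on day 0 thus had a lower mean on day 3, the opposite of the 3 receptor genes between them. No test was run on this difference.

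**Figure D5:**
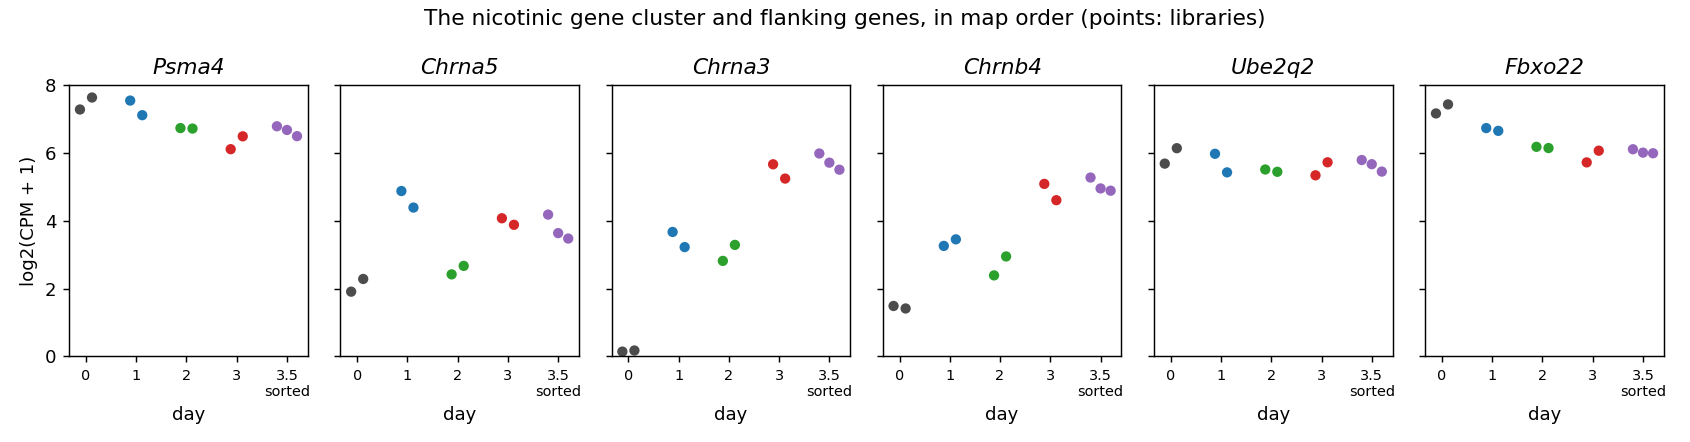
Log2(CPM + 1) (vertical axis, shared) by day (horizontal axes) for the Chrna5, Chrna3 and Chrnb4 genes and their measured neighbours, in map order from left to right, with points for libraries. The receptor genes are above their day 0 level on day 3, and Psma4, Ube2q2 and Fbxo22 have lower means on day 3 than on day 0.

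Around Chat the neighbours were also unlike the gene itself. Ogdhl averaged 77 CPM on day 0, 51 on day 1, 36.1 on day 2, 50.9 on day 3 and 39.5 in sorted cells. Parg averaged 170 CPM on day 0 and 103 CPM on day 3, and Ercc6 46.5 CPM on day 0 and 59.2 CPM on day 3. The remaining 3 neighbours, 1700024G13Rik, Prrxl1 and 3425401B19Rik, had means of at most 0.232 CPM in every group.

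Across the 11 libraries, likeness was measured as Pearson's r of log2(CPM + 1), which is a description over libraries that share days, depth and project. Within the set, Chrna3 was most like Chrna4 (r = 0.980) and Chrnb4 (0.980), then Chrnb2 (0.889), Chat (0.854), Chrna5 (0.694) and Ache (0.666), and its r with Slc5a7 was -0.096. Chrna5, its neighbour, was therefore less like Chrna3 than Chrnb2 on another chromosome was. Over all genes, those most like Chrna3 included Fam102b (0.992), Cd47 (0.992), Cdkn1b (0.990) and Slc1a2 (0.989). Cdkn1b, an inhibitor of cyclin-dependent kinases, averaged 41.4 CPM on day 0, 79.8 on day 1, 73.9 on day 2, 124 on day 3 and 133 in sorted cells, with the same pair of steps.

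The 5 genes most like Chat were Adcyap1 (r = 0.995), Scn3a (0.994), Scg2 (0.993), Kcnk10 (0.989) and Chgb (0.983). Adcyap1 encodes the neuropeptide PACAP, Scn3a a voltage-gated sodium channel, and Scg2 and Chgb proteins of secretory granules. Scg2 averaged 0.0848 CPM on day 0, 0.218 on day 1, 0.278 on day 2, 12.8 on day 3 and 12.3 in sorted cells. All 5 had means of at most 1.24 CPM through day 2, so their likeness to Chat rests on the step between day 2 and day 3.

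A wider list of 43 cholinergic genes was read beside the set, of which 29 passed the filter in the fit of days 0 to 3. On day 1, 7 were higher and 2 lower than on day 0, where 20.9% of all genes were called, 12% higher and 8.91% lower. The median log2 fold change of the list was 0.76, against 0.011 for all genes tested, and Mnx1, at 0 counts on day 0, lies above that median also at the floor. Without the second day 0 library the list had 5 calls in place of 9. Among the other nicotinic subunits, Chrnb1, the muscle type beta subunit, had 12.7 and 13.7 CPM on day 1, against 2.75 and 3.44 CPM on day 0 (2.08 ± 0.26, edgeR adjusted p = 0.00138). Chrna9, known from cochlear hair cells, had 0.252 and 0.785 CPM on day 1, against 8.01 and 9.94 CPM on day 0. It passed the filter of this fit only with its day 0 counts, where it was high. Its call, among the 2 lower of this list, is therefore not counted as a result. Chrna9 fell over the same day in which Chrna3 appeared, and on day 3 it had 0 and 3 counts.

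The transcription factors of cholinergic neurons were mixed in their timing. Isl1, a LIM homeodomain factor of motor neurons, had 1.76 and 1.91 CPM on day 1, against 0.102 and 0.51 CPM on day 0 (2.64 ± 0.50, adjusted p = 0.00728). Mnx1, a motor neuron factor, had 55 and 82 counts on day 1, against 0 and 0 counts on day 0 (adjusted p = 0.00186). These were still low levels, with Mnx1 at 1.98 and 2.57 CPM on day 1. Tmem35, Ly6h and Lypd6 were also higher on day 1, and Chka, a choline kinase, was lower (-0.56 ± 0.15, adjusted p = 0.0304).

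On day 2, 6 of the 29 were higher than on day 1 and 0 were lower in edgeR's test, where 9.65% of all genes were called higher and 9.99% lower. At an unadjusted p under 0.05, 4 were lower. DESeq2 called 8 higher and 2 lower, and without the second day 2 library edgeR called 3. The list's median log2 fold change was 0.18. The LIM factor Lhx4 had 1.8 and 2.34 CPM on day 2, against 0.144 and 0.282 CPM on day 1 (3.23 ± 0.59, adjusted p = 0.00593), and Lhx3, another LIM factor, had 23 and 48 counts on day 2, against 1 and 3 counts on day 1 (adjusted p = 0.0198). Chrna7, which forms receptors on its own, had 13.3 and 15.9 CPM on day 2, against 5.89 and 6.75 CPM on day 1 (1.2 ± 0.31, adjusted p = 0.0273). It was therefore higher on the day that Chrna5 was lower. Tmem35, a chaperone of nicotinic receptor assembly, and Lrp4, the agrin receptor of the neuromuscular junction, were also called.

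On day 3, 7 of the 29 were higher than on day 2 and 0 were lower, where 2.81% of all genes were called higher and 1.26% lower. In the list 1, Chrm3, was lower at an unadjusted p under 0.05. DESeq2 also called 7 higher and 0 lower. The median of the list was 0.75 on the log2 scale. Isl1 had 62.5 and 48.9 CPM on day 3, against 3.82 and 4.39 CPM on day 2 (3.77 ± 0.39, adjusted p = 0.00352). Tmem35 had 69.3 and 35.8 CPM on day 3, against 12.1 and 10.1 CPM on day 2 (2.25 ± 0.34, adjusted p = 0.0128). Slc10a4, a transporter of cholinergic and other vesicles, had 3.03 and 6.63 CPM on day 3, against 0.449 and 0.586 CPM on day 2 (3.22 ± 0.57, adjusted p = 0.0196). Ly6h, a regulator of nicotinic receptors, Lhx4 and Phox2a were also called, and each stood higher in both day 3 libraries than in either day 2 library. Without the first day 2 library the list had 2 calls, and without the second day 2 library or the first day 3 library it had 0.

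Between day 0 and day 3, 18 of the 29 were higher and 3 lower, where 53.9% of all genes were called, 27.6% higher and 26.3% lower. The median log2 fold change of the list was 1.40, against 0.016 for all genes tested. The lower genes were Chrna9, Chrm3, a muscarinic receptor, and Slc44a1, a choline transporter of the plasma membrane. Chrna9 passed the filter only with its day 0 counts, and Chrng, Isl2 and Prima1, among the higher, only with their day 3 counts. These calls rest on the groups where the genes are high. Of the 11 other nicotinic subunits, 8 were at or under 3 counts in every day 3 library and 8 in every sorted library. Chrna7 and Chrnb1 were thus detected beside the 5 subunits of the set. Chrng was near that floor, with 25 and 9 counts on day 3 and 1, 2 and 8 counts in sorted cells. Of 28 genes tested in sorted cells against day 3, 1 was lower and 0 higher, where 2.93% of all genes were called lower and 0.435% higher. This was Lypd6b, of the Ly6 family, with 6, 2 and 3 counts in sorted cells, against 37 and 30 counts on day 3 (-2.14 ± 0.49, adjusted p = 0.0385). The list had 2 calls without either day 0 library, and 0 without either day 2 library, the second day 3 library or the first or second sorted library. DESeq2 called 1 higher and 2 lower there.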

How the data were processed

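The deposited table gives estimated counts per gene symbol for 11 libraries, made by the authors; 38093 of its 38197 genes hold whole values and 104 hold fractions, none of them a gene described here. Values were rounded. The deposited log2 values equal log2 CPM recomputed from those counts within 5.15e-14. The FPKM values were made by the authors. Builds GRCm38 and mm10 and the tools limma, Cufflinks 2.1.1, HTSeq 0.6.1, TopHat2 2.0.4, CASAVA and bcl2fastq 1.8.3 stand in the submitters' processing notes, without roles. Per the labels, RNA came from a ZymoPure kit and libraries from Illumina TruSeq with polyA selection. Annotation and counting strand were not stated in the sources used here, so reads of overlapping genes cannot be told apart. Each column was assigned to its library from the labels' descriptions, and 0 were unmatched.

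Genes were tested in edgeR 4.0.16 (R 4.3.3) with TMM scaling, filterByExpr with a minimum count of 10, the quasi-likelihood F test and Benjamini-Hochberg adjustment over all genes, at a threshold of 0.05. Days 0 to 3 used 8 libraries (16810 genes) and sorted cells against day 3 all 11 (17006 genes). Of the 8 measured genes, 7 passed the filter in the first fit and 8 in the second. The SE is the size of the log2 fold change over the square root of F. Pooled ratios carry exact Clopper-Pearson 95% intervals, and 3 counts a library is the floor. Both cover counting error only. Tests were checked on simulated data.

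Named genes were the set, called genes of the lists, the 3 nearest protein-coding genes on each side of the cluster and of Chat, the 5 genes most like Chrna3 and Chat, and cell type markers, of which some are not reported here; Adar was added from its annotated overlap. Of the markers, Hbb-bt was not analysed here. Members and lists were chosen with earlier results of these data known. Promoter windows were RefSeq GRCm38.p6, found for all 9 genes. Alternatives were DESeq2 1.42.0, RLE size factors, unfiltered counts, a replicate block, other libraries in the fit, FPKM with pseudocounts of 1 and 0.1 in limma 3.58.1, with and without a minimum FPKM of 1 in 2 libraries, the deposited voom values, and each library left out.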

Additional observations from a re-analysis of the deposited data

How the results depend on the processing

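Of the member and list counts and the Chrna3 difference, 58 of 81 values kept their size under other settings and 62 of 78 with 1 library left out. A kept size was not always an equal value. Counts could differ from the main count by a limited factor, and the Chrna3 difference by less than the spread of its day 0 and day 1 libraries. Of single-gene fold changes, 211 of 226 and 216 of 240 kept direction and call. The log2 difference of Chrna3, day 1 minus day 0, was 6.40 with counts, 1.78 with log2(FPKM + 1), with or without the filter, 4.38 with log2(FPKM + 0.1), and 6.13 to 6.64 with 1 library left out. A larger pseudocount compresses the difference of a gene near 0 by construction. In the set, calls at day 2 were 1, against 2 without a filter and 2 with DESeq2. The second call was Slc5a7, which entered only through days 0 and 1 and is not counted as a result. Calls at day 3 against day 2 were 6, with Chat, which entered only through day 3, counted among them, against 3, 1 and 2 with log2(FPKM + 1), log2(FPKM + 0.1) and unfiltered FPKM, and 0 to 7 with 1 library left out. In the wider list, day 1 had 9 calls, with Chrna9, which entered only through day 0, counted among them. Against that, there were 3 with log2(FPKM + 1), 3 with unfiltered FPKM and 5 to 9 with 1 library left out. Day 2 had 6, against 10 without a filter, 10 with DESeq2, 3 with unfiltered FPKM and 3 to 8. Day 3 had 7, against 4, 2 and 2 with the FPKM settings and 0 to 7. Sorted cells had 1, against 3 without a filter, 3 with DESeq2, and 0 with other libraries in the fit, the replicate block and each FPKM setting, and 0 to 2 with 1 library left out. The causes were not tested.

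Reversals were limited to fold changes that were not called. Ache in sorted cells was 0.08 with unfiltered FPKM and -1.12 to 1.29 with 1 library left out. With 1 library left out, Chat in sorted cells ran from -0.69 to 0.46, Chrnb4 in sorted cells from -0.03 to 0.47, Chrna4 at day 2 from -0.19 to 0.31, and Slc5a7 at day 3 against day 2 from -0.56 to 1.84. Replicate numbers were not taken to pair libraries: the correlations of replicate differences between days ran from -0.461 to 0.186. With the replicate block the day 3 against day 2 step kept 5 calls in the set, Chat again counted among them. Chrna4 was lost, with an adjusted p of 0.0618 in edgeR, and the block changed no other call among the members. Over all genes, calls at day 3 against day 2 were 684, against 393 with the block, 1474 with DESeq2, 1608 without a filter, 1431 with other libraries in the fit, 216, 88 and 254 with the FPKM settings and 448 with voom values. In sorted cells they were 573, against 993 without a filter, 978 with DESeq2, 266 with the block and 265, 355 and 263 with the FPKM settings. At day 1 they were 3513, against 2311 and 2216 with filtered and unfiltered log2(FPKM + 1), and at day 2 3302, against 2103 with log2(FPKM + 0.1) and 2157 with unfiltered FPKM. The share of calls that were higher was 57.4% at day 1, against 71.8% with voom values and 71.3% with log2(FPKM + 0.1). It was 69.2% at day 3 against day 2, against 50% with log2(FPKM + 0.1) and 82.3% with unfiltered FPKM, and 49.2% at day 2, against 36% with unfiltered FPKM. Voom values moved the median of all genes to 0.151 at day 1 and 0.175 at day 3 against day 0. Chat, Ache, Slc5a7 and day 0 Chrna3 are limited by depth, with counts near the floor of 3.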
